A study of Mus musculus with 21 samples.

Results

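The cells described here came from mouse muscle, nearly all of it injured. The BBKNN clustering placed them among infiltrating monocytes, and their Harmony name is blank. The study grouped the same cells 3 times, after batch correction with Harmony, with BBKNN and with Scanorama, and named the groups of each result separately. Why a Harmony name is blank is not given in the sources used here, and a cell without one is called nameless below. The members were all cells with no Harmony name and the BBKNN name infiltrating monocyte, and they numbered 1856 of 87822 cells. They made up 14.9% of the 12417 cells to which BBKNN gave that name and 47.6% of the 3897 cells without a Harmony name.

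The cells came from the tibialis anterior muscle of 20-month-old female C57Bl/6J mice, profiled with droplet-based single-cell RNA sequencing of dissociated whole muscle. Notexin, a snake-venom phospholipase that destroys muscle fibers, was injected into the muscle of both legs, and mice were taken at 1 day post-injury (dpi; 4 mice), 2 dpi (3), 3.5 dpi (4), 5 dpi (3) and 7 dpi (3) or uninjured (4). The labels name no transgene and no further treatment for any group. Each replicate was a separately injured and analysed animal, and mice are named by time point and replicate letter.

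Monocytes that enter damaged muscle from the blood are known for the chemokine receptor Ccr2, which lets them leave the bone marrow and follow chemokines into tissue, and for the surface protein Ly6c2. They clear debris together with neutrophils and then turn into macrophages, first pro-inflammatory and later repair-promoting. Patrolling monocytes usually means cells that survey the vessel wall and are rich in Cx3cr1, but the study's own patrolling type is described there as high in Fabp5 and negative for Cx3cr1 and Ly6c2. The values used here held names, totals and gene-class percentages for each cell but no values of single genes, so Ccr2 and Ly6c2 were not checked in the members and the name is BBKNN's own.

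Between 974 and 10556 cells per mouse were present, with 5602464 to 70730171 unique molecular identifiers (UMIs, counted transcripts) per mouse. The 2 dpi mouse replicate A held the most cells and, at 15035, the fewest reads per cell. It also held 1134 of the members, or 61.1%, and the main shares and pooled percentages below are also given without it. Of the member barcodes, 33 occurred in a cell of another mouse, and 0 occurred among the members of another mouse.

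The members appeared with injury, peaked at 2 dpi and were few at 7 dpi. Among uninjured mice they numbered 0 in replicates A, B and D, which allows shares of up to 0.132%, 0.0879% and 0.308% of cells, and 1 of 5029 cells in replicate C. The 1 dpi mice held 54, 24, 62 and 26 members in replicates A to D, which was 1.85%, 2.01%, 1.37% and 0.677% of their cells. At 2 dpi they were 10.7% of cells in replicate A (95% exact binomial interval 10.2 to 11.3), 6.52% in replicate B (5.83 to 7.28) and 4.02% in replicate C (3.36 to 4.76). The lowest 2 dpi mouse stood above the highest mouse of every other time point.

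By 3.5 dpi the share had fallen to 0.415%, 0.418%, 0.8005% and 0.436% in replicates A to D, from 13, 11, 54 and 17 members. The 5 dpi mice held 6, 16 and 6 members, or 0.113%, 0.189% and 0.226% of cells. The 7 dpi mice held 0, 3 and 1. At 5 and 7 dpi each mouse thus rested on 16 cells or fewer, and these intervals and limits cover counting error only.

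The group means were 1.48% ± 0.598 at 1 dpi (SD, n = 4), 7.10% ± 3.40 at 2 dpi (n = 3), 0.518% ± 0.189 at 3.5 dpi (n = 4), 0.176% ± 0.0577 at 5 dpi (n = 3) and 0.0383% ± 0.0357 at 7 dpi (n = 3). Over the 6 time points the share differed more than mice of 1 time point did (adjusted p = 3.57e-05 from p = 1e-05, the smallest value that the 100000 resamples of this permutation test can give). Of all 25 cell categories tested the same way, 20 passed, a background of 80%, and 52% passed with a rise as their largest difference, so most cell categories of this muscle passed and a pass alone does not single out the members. Against uninjured mice the share was higher by 1.47 percentage points at 1 dpi and by 7.09, 0.513 and 0.171 points at 2, 3.5 and 5 dpi, each without overlap between groups (adjusted p = 0.0357 each, two-sided exact permutation test). At 7 dpi the difference of 0.0333 points did not pass (adjusted p = 0.257 in the same exact test).

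Neighbouring time points were set against each other in the same way. The share rose by 5.62 points from 1 to 2 dpi, fell by 6.58 points from 2 to 3.5 dpi and fell by 0.342 points from 3.5 to 5 dpi, all without overlap (adjusted p = 0.0381 each, two-sided exact permutation test). From 5 to 7 dpi the groups did not overlap either, but 3 mice against 3 cannot give an exact permutation p below 0.1, which was the value obtained. Without 2 dpi replicate A the rise over uninjured mice at 2 dpi was 5.27 points (adjusted p = 0.0833, exact permutation test on the 2 remaining mice), and the changes from 1 to 2 and from 2 to 3.5 dpi were 3.796 and -4.75 points (adjusted p = 0.0889 for both in that exact test). When shares were taken of immune cells or of monocytes and macrophages alone, in place of all cells, 0 of the 5 differences from uninjured mice passed. The rise at 2 dpi was 8.75 points of immune cells (adjusted p = 0.143, exact permutation test). The steepness of the fall after 2 dpi depended on the name that picks the nameless cells. With any BBKNN monocyte or macrophage name the excess over uninjured mice was 2.93, 2.79 and 1.07 points at 3.5, 5 and 7 dpi, and with a Scanorama monocyte name it was 2.46, 2.05 and 0.856 points (adjusted p = 0.0286 throughout, exact permutation test).

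**Figure D1:**
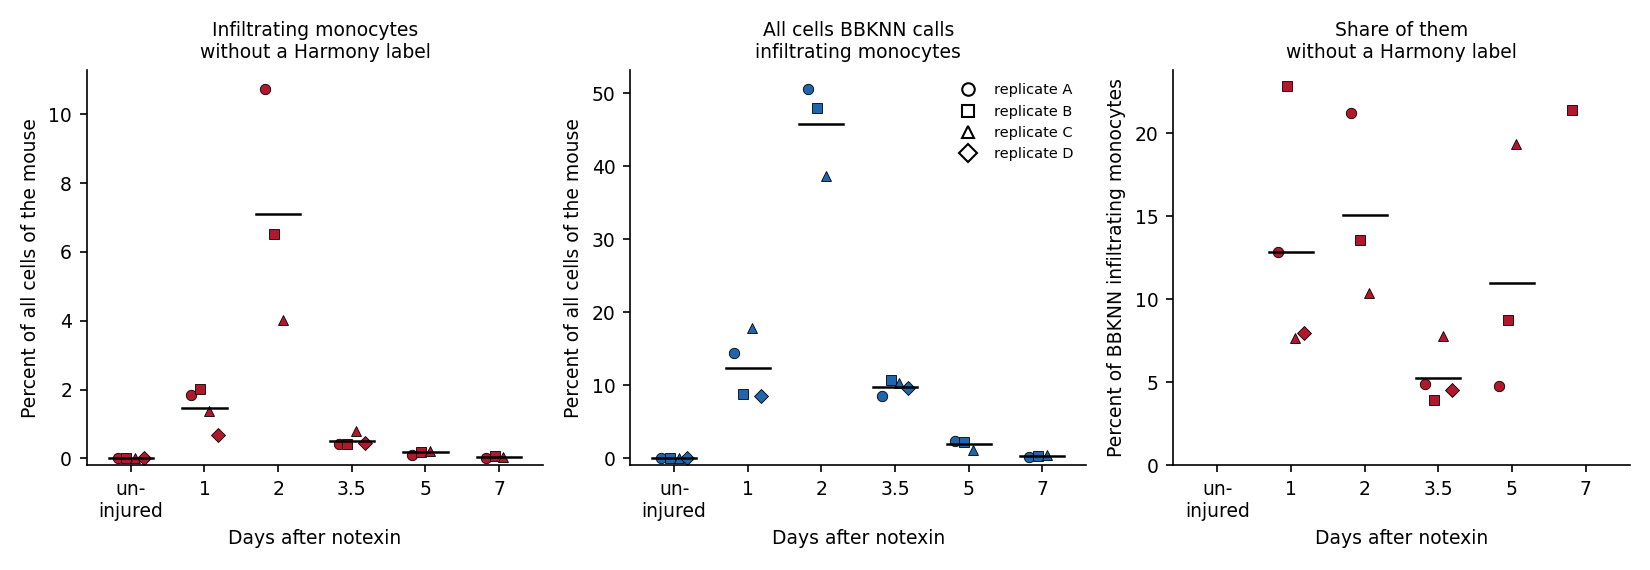
Each point is 1 mouse and each line a group mean, by day after notexin; the panels give the members as a percent of all cells, all BBKNN infiltrating monocytes as a percent of all cells, and the percent of the latter without a Harmony name for mice with at least 10 such cells. The members peak at 2 dpi with a mean of 7.10%, as the whole BBKNN type does with 45.7%, while the share without a name overlaps between 1, 2 and 5 dpi.

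The whole BBKNN type followed the same course, which put the members' rise next to that of the named cells. BBKNN infiltrating monocytes made up 12.4% ± 4.54 of cells at 1 dpi (SD, n = 4), 45.7% ± 6.25 at 2 dpi (n = 3), 9.76% ± 0.952 at 3.5 dpi (n = 4), 1.89% ± 0.635 at 5 dpi (n = 3) and 0.273% ± 0.1205 at 7 dpi (n = 3). The fraction of them that lacked a Harmony name changed less. It was 12.9%, 22.9%, 7.69% and 8% in the 1 dpi mice and 21.2%, 13.6% and 10.4% in the 2 dpi mice. The 3.5 dpi mice had 4.89%, 3.91%, 7.80% and 4.55%, all below every 2 dpi mouse. At 5 dpi the fraction was 4.80%, 8.74% and 19.4%, the last from 31 cells (exact binomial interval 7.45 to 37.5), and the 1 mouse with at least 10 such cells at 7 dpi had 21.4% of 14 cells.

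Over these 15 mice the fraction did not differ between time points beyond the spread between mice (p = 0.0930, permutation test). The difference between 2 and 3.5 dpi was -9.79 points (adjusted p = 0.114, two-sided exact permutation test). Without 2 dpi replicate A the difference between 1 and 2 dpi turned from 2.22 to -0.854 points. With a stricter filter, which drops cells under 1000 genes, under 2000 UMIs or above 15% mitochondrial UMIs, the fraction did differ between time points (p = 0.0155, permutation test), with means of 6.20%, 7.57%, 2.65% and 3.18% for the mice of 1, 2, 3.5 and 5 dpi. That test also held 1 mouse of 7 dpi, replicate B, with 0% of 10 cells. Without this filter the fraction also differed when 5 dpi replicate C, the mouse with 31 BBKNN infiltrating monocytes, was left out (p = 0.039, permutation test). Under the stricter filter the 2 dpi mice had 7.91%, 7.72% and 7.07% without a name.

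Seen from the other side, infiltrating monocytes were the leading name among cells that Harmony left without one at 2 dpi. They were 95.1%, 87.7% and 83.1% of the nameless cells in the 2 dpi mice, against 44.9%, 44.8% and 36.4% of the cells with a Harmony name. At 1 dpi they were 40.9%, 63.2%, 20.8% and 11.02% of nameless cells, and at 3.5 dpi 11.6% to 20.1%. Across 17 injured mice with at least 10 nameless cells the share was higher without than with a Harmony name by 15.5 points ± 20.3 (SD). It was higher in 16 of 17 mice (p = 4.58e-05, two-sided exact sign-flip permutation test). The gap was widest at 2 dpi. Group means without and with a name were 34.0% and 11.5% at 1 dpi and 14.6% and 9.58% at 3.5 dpi. They were 4.59% and 1.79% at 5 dpi and 2.08% and 0.239% at 7 dpi. The same 2 names define the members, so this test only describes how the names coincide. Among the immune types of BBKNN the infiltrating monocytes had the highest pooled fraction without a Harmony name, 14.9%, followed by Cx3cr1_hi macrophages with 7.67%, inflammatory monocytes with 6.96%, patrolling monocytes with 4.84% and T cells with 4.60%. Without 2 dpi replicate A these fractions were 10.2%, 7.84%, 8.26%, 4.97% and 4.77% in the same order. The pooled fractions weight mice by their cells and were not tested.

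What the named counterparts were called gave the identity that Harmony saw in this BBKNN group. Of the 10561 cells with a Harmony name and the BBKNN name infiltrating monocyte, Harmony called 66.3% patrolling monocytes, 15.8% Cx3cr1_lo macrophages, 6.65% Cx3cr1_hi macrophages, 6.19% inflammatory monocytes and 1.47% Cxcl10+ monocytes. Without 2 dpi replicate A the first of these shares were 71.0% and 13.6%. Harmony had no type named infiltrating monocyte. Conversely, 60.03% of Harmony's patrolling monocytes were infiltrating monocytes for BBKNN, against 8.93% of its inflammatory and 8.36% of its Cxcl10+ monocytes. Most of the named cells that shared the members' BBKNN name were therefore patrolling monocytes in Harmony's naming.

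Scanorama, whose labels the rule did not use, called 1753 of the 1856 members infiltrating monocytes, or 94.5%, and 623 of 722 without 2 dpi replicate A, or 86.3%. Of the rest it called 50 Cx3cr1_hi macrophages, 26 patrolling monocytes, 20 inflammatory monocytes and 1 committed progenitor, and left 6 unnamed. The agreement was tightest at 2 dpi, with 99.6%, 95% and 99.2% of the members of replicates A to C. At 1 dpi it was 92.6%, 100%, 87.1% and 80.8%, and at 3.5 dpi 92.3%, 45.5%, 48.1% and 29.4%. The cells with a Harmony name and the same BBKNN name shared this Scanorama name in 92.0% to 96.0% at 2 dpi, but only in 17.2%, 49.4%, 29.97% and 17.4% at 1 dpi and in 17.0% to 31.3% at 3.5 dpi. In each of the 12 mice with at least 10 members the members carried the Scanorama name more often than the named cells did, a description that was not tested.

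A further label, in a column marked as given before filtering, divided the members differently. It called 1225 of them patrolling monocytes, 128 inflammatory monocytes, 10 macrophages and 1 a dendritic cell, but 396 (21.3%) T cells and 94 (5.06%) muscle stem cells (MuSCs), with 2 called type IIb myonuclei. Among the named cells of the same BBKNN type 93 of 10561 had been T cells, or 0.881%, and 131 had been MuSCs, or 1.24%. Without 2 dpi replicate A the former T cells were 22.0% of members and the former MuSCs 6.23%. The former T cell name reached 20.9%, 26.3% and 28.9% of members in the 2 dpi mice and 46.2%, 45.5%, 24.1% and 29.4% in the 3.5 dpi mice. At 1 dpi it was 0%, 33.3%, 3.23% and 3.85%, and there the former MuSC name was the larger one in replicate A, with 25.9%, and replicate D, with 15.4%.

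**Figure D2:**
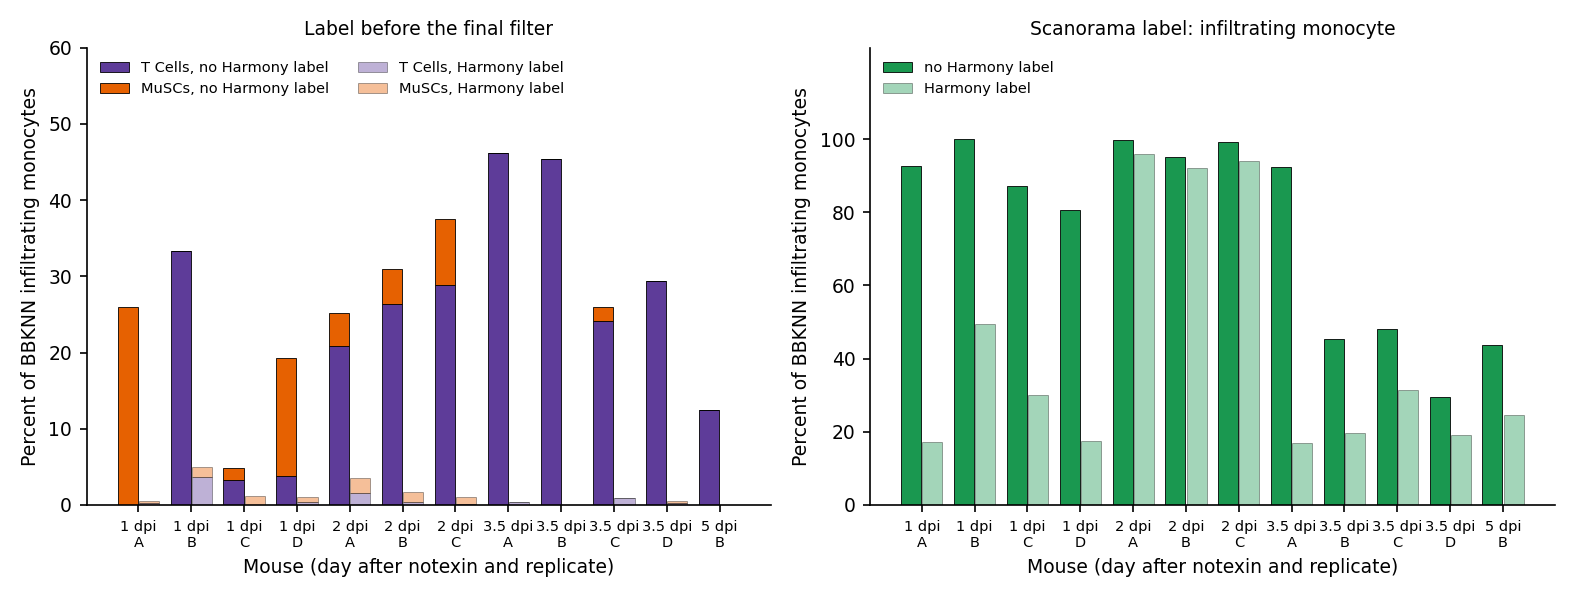
For each of the 12 mice with at least 10 members, bars give the percent of BBKNN infiltrating monocytes without (dark) and with (light) a Harmony name that had been called T cells or MuSCs before filtering (left) and that Scanorama calls infiltrating monocytes (right). The former T cell and MuSC names take 28.9% and 8.59% of members in 2 dpi replicate C, and the Scanorama name is more frequent in the members in every mouse.

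Members formerly named T cells or MuSCs were the shallowest. Their median was 1613 UMIs and 1620 UMIs, against 2479 in those formerly named patrolling monocytes. Their median mitochondrial percent, the share of UMIs from mitochondrial genes and a common sign of damaged or stressed cells, was 17.3% and 18.0% against 11.9%. The same direction held within 2 dpi replicate A, with 18.2% in former T cells, 18.9% in former MuSCs and 13.3% in former patrolling monocytes. In 2 dpi replicate C the former patrolling members had 6390 UMIs and 6.22% mitochondrial UMIs, and the former T cells 1966 UMIs and 10.8%.

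As a whole the members held far fewer transcripts and genes, and more mitochondrial transcripts, than named monocytes of the same mouse. These medians were compared in the 12 mice with at least 10 members: all 1, 2 and 3.5 dpi mice and 5 dpi replicate B. Over these mice the median UMIs of the members ran from 1721 to 6069, with a median of 2916, and those of named cells of the same BBKNN type from 5593 to 23852. At 2 dpi, for example, the members had 1959, 2898 and 4206 UMIs in replicates A to C, and the named cells 5593, 11679 and 15834. Relative to those cells the members had 4.26-fold fewer UMIs, a difference of -2.09 ± 0.469 on the log2 scale, and 2.61-fold fewer genes, a difference of -1.38 ± 0.220 (SD, n = 12). Relative to all Harmony monocytes the members had 3.63-fold fewer UMIs and 2.35-fold fewer genes, with lower values in 12 of 12 mice in both comparisons (adjusted p = 0.00171 in all 4 cases, exact two-sided sign-flip permutation test, 28 tests in all).

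Mitochondrial UMIs ran the other way. The members had 12.5%, 18.4%, 9.55% and 11.7% in the 1 dpi mice, 14.5%, 11.5% and 7.99% in the 2 dpi mice, 8.14%, 5.31%, 11.1% and 21.4% in the 3.5 dpi mice and 15.2% in 5 dpi replicate B. Named cells of the same BBKNN type stayed between 2.19% and 4.94%. The mean difference was 8.60 points ± 4.65 (SD, n = 12) and 8.42 points ± 4.68 against all Harmony monocytes, higher in 12 of 12 mice (adjusted p = 0.00171 for both in the exact sign-flip test). The member medians and those of the named cells did not overlap across mice, with 3.5 dpi replicate B nearest to the named range.

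Other gene classes differed as well, and less evenly. Transcription factor genes took 4.03% ± 1.09 of member UMIs against 2.81% ± 0.450 in named cells of the same BBKNN type, higher in 11 of 12 mice (adjusted p = 0.00249, exact sign-flip test). Long intergenic noncoding RNAs (lincRNAs), several of which stay in the nucleus, took 1.95% ± 1.02 against 1.03% ± 0.165 (adjusted p = 0.0164, higher in 9 of 12 mice, same exact test). The exceptions were 2 dpi replicate C and 3.5 dpi replicates A and B, whose members had 1.02%, 0.704% and 0.422%. Antisense RNAs took 0.0687% against 0.0484% (adjusted p = 0.00736, higher in 10 of 12 mice, same exact test), and protein-coding genes 91.3% against 94.6% (adjusted p = 0.00171, lower in 12 of 12 mice, same exact test).

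Ribosomal protein genes, which encode the protein part of the ribosome, took 8.07% ± 2.62 in the members and 8.54% ± 0.881 in named cells of the same BBKNN type (adjusted p = 0.702, exact sign-flip test), and 9.80% ± 0.482 in all Harmony monocytes (adjusted p = 0.0732, same exact test). One member median stood apart, 15.2% in 3.5 dpi replicate B from 11 cells. Without that mouse the members were at -1.05 points from the same BBKNN type (adjusted p = 0.00391, exact sign-flip test) and at -2.37 points from all Harmony monocytes (adjusted p = 0.0021, same exact test). Heat shock genes, which encode protein chaperones induced by stress, took 0.639% ± 0.191 in the members against 0.630% ± 0.0672 (adjusted p = 1, exact sign-flip test), higher in 4 and lower in 8 of 12 mice. The doublet score, the share of a cell's neighbours that are artificial doublets, was 0.145 ± 0.0531 in the members and 0.216 ± 0.0356 in named cells, lower in 12 of 12 mice (adjusted p = 0.00171, same exact test). Of the 14 measures 8 passed against each comparison group, 4 higher and 4 lower, and small nucleolar, micro- and small nuclear RNAs had medians of 0 in the members.

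**Figure D3:**
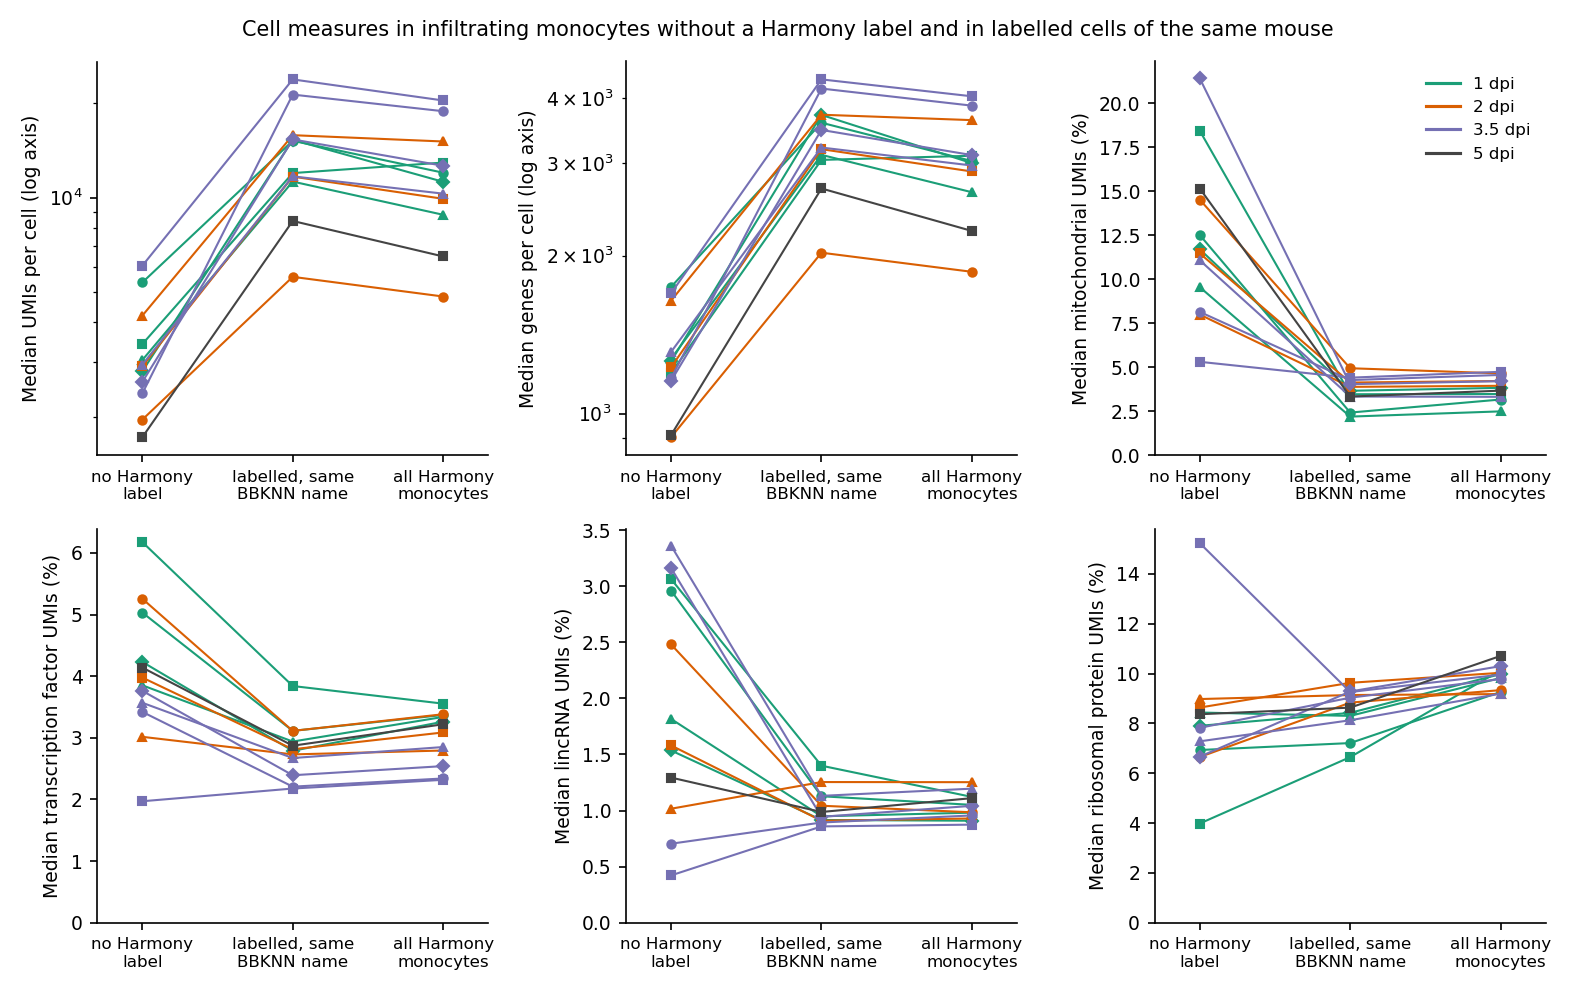
Each line joins the medians of 1 mouse (12 mice with at least 10 members; color gives the day, marker shape the replicate) in the members, in named cells of the same BBKNN type and in all Harmony monocytes; UMI and gene axes are logarithmic. Members lie lowest in UMIs and genes and highest in mitochondrial percent in 12 of 12 mice, whereas ribosomal protein percent has 1 member median far above the rest, 15.2%.

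Low depth and high mitochondrial content were shared by most members of a mouse rather than by a few. The part of the members below the 10th percentile of UMIs of the named cells of their mouse and BBKNN type had a median over mice of 82.0%, with a range from 63.6% to 100%. The part above the 90th percentile of mitochondrial percent had a median of 68.8% and a range from 45.5% to 87.5%. Under 750 genes lay 21.4% of members and 2.38% of the named cells, or 17.04% and 0.803% without 2 dpi replicate A. The stricter filter named above kept 686 members (37.0%), against 93.2% of the named cells, and 51.2% of the members without 2 dpi replicate A.

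The fraction of BBKNN infiltrating monocytes without a Harmony name fell steeply with the UMIs of the cell. Averaged over mice with at least 10 cells in a window it was 65.3% ± 13.7 from 1000 to 2000 UMIs (SD, n = 8), 58.5% ± 14.6 from 2000 to 3000 (n = 8), 29.0% ± 17.5 from 3000 to 5000 (n = 10), 13.8% ± 14.7 from 5000 to 8000 (n = 12) and 1.08% ± 1.11 from 8000 upward (n = 14). By mitochondrial percent it was 1.95% ± 1.18 under 5% (n = 14), 12.5% ± 7.999 from 5% to 10% (n = 14), 46.8% ± 20.1 from 10% to 15% (n = 9), 63.3% ± 21.2 from 15% to 20% (n = 6) and 57.4% ± 12.4 from 20% to 30% (n = 7). In windows up to 3000 UMIs more cells were nameless than named, on average, and from 8000 UMIs upward nearly all had a name.

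Depth also stood beside the difference among the 2 dpi mice. Replicate A had the highest fraction without a name, 21.2%, and the shallowest cells, with a median of 3873 UMIs over all its cells against 7412 and 9226 in replicates B and C. Cells of 1000 to 2000 UMIs were 17.4% of its BBKNN infiltrating monocytes, against 4.81% and 3.33%. Within windows of the same UMI range replicate A had the lowest fraction of the mice, though its saturation of 28.1% was also below the 44.9% and 60.4% of replicates B and C: 63.7% (exact binomial interval 60.5 to 66.8), 71.7% (62.1 to 80.02) and 78.0% (62.4 to 89.4) from 1000 to 2000 UMIs, and 11.97% (10.2 to 13.9), 45.5% (38.6 to 52.5) and 42.6% (28.3 to 57.8) from 3000 to 5000 UMIs in replicates A to C. Within the window of 3000 to 5000 UMIs the mean fraction was 41.7% at 1 dpi (3 mice), 33.3% at 2 dpi (3) and 27.7% at 3.5 dpi (2), and from 5000 to 8000 UMIs it was 27.5% (4), 12.2% (3) and 6.26% (3). Below 3000 UMIs at most 3 mice a day had enough cells, and from 1000 to 2000 UMIs the mean at 2 dpi, 71.2%, was above that at 1 dpi, 66.9%. These values by day were not tested.

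**Figure D4:**
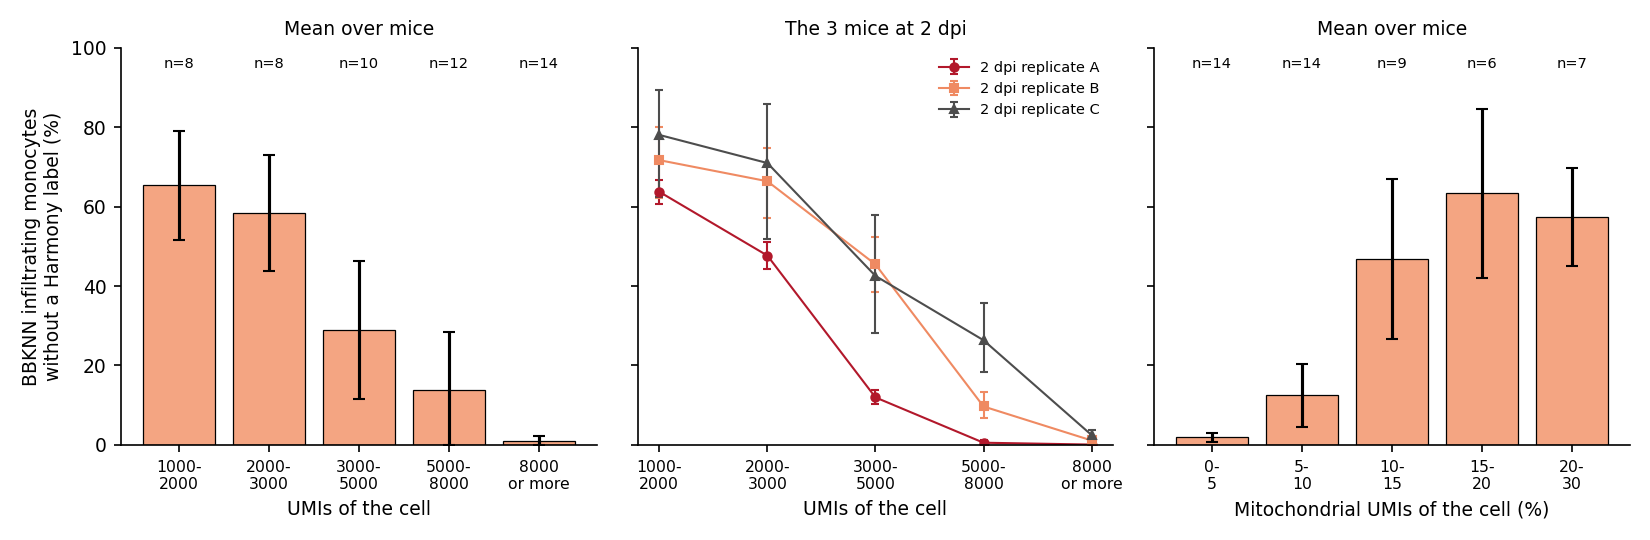
The percent of BBKNN infiltrating monocytes without a Harmony name by UMIs (left, middle) and by mitochondrial percent (right); bars are means over mice with at least 10 cells in a window (n above each bar) with SD, and lines are the 2 dpi mice with 95% exact binomial intervals. The mean falls from 65.3% to 1.08% with UMIs, and 2 dpi replicate A lies lowest in each window of the middle panel.

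Taking depth into account changed several of these differences. Genes and gene-class percents were expressed as deviations from a cubic curve on log10 UMIs. It was fitted per mouse over Harmony monocytes and macrophages, the members and other nameless cells that BBKNN called monocytes or macrophages. Members thus helped to set the curve from which they deviate, above all at low UMIs, which can shrink their differences. The mitochondrial percent of the members stayed higher by 2.69 points ± 2.48 than in named cells of the same BBKNN type. Against all Harmony monocytes it was higher by 2.81 points ± 2.48, with 10 of 12 mice higher in each comparison (adjusted p = 0.0234 for both, exact sign-flip test). The gene number remained lower by 0.0417 ± 0.0393 on the log2 scale than in cells of the same BBKNN type (adjusted p = 0.0234, same exact test), but not than in all Harmony monocytes (adjusted p = 0.0575, same exact test). Transcription factor, lincRNA, antisense and protein-coding percents no longer passed (adjusted p = 0.139, 0.0847, 0.323 and 0.330 against the same BBKNN type, same exact test). In a comparison chosen after these values were seen, restricted to cells of 1000 to 3000 UMIs in both groups, the members of 6 mice had 13.5% mitochondrial UMIs against 11.6% in named cells of the same BBKNN type, higher in 3 and lower in 3 mice (adjusted p = 0.608, exact sign-flip test), and 0 of the 14 measures passed. With 6 mice the exact sign-flip p cannot go below 0.0312, so a pass after adjustment was hardly within reach. Antisense percent, higher by 0.0174 points in 6 of 6 mice, and the doublet score, lower in 6 of 6, both had that p and an adjusted p of 0.0972 in this exact test.

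Against all Harmony monocytes of 1000 to 3000 UMIs, in 9 mice, the members had lower ribosomal protein percents, 7.07% against 9.67%, lower in 9 of 9 mice (adjusted p = 0.0365, exact sign-flip test). Their genes were lower by 0.293 on the log2 scale (adjusted p = 0.0365, same exact test), beside UMIs that were still lower by 0.287 within the window. Mitochondrial percents were 14.5% against 7.07%, higher in 8 of 9 mice (adjusted p = 0.0547, same exact test).

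Over the time course the members themselves did not differ in these measures beyond the spread between mice. In the 12 mice, 0 of 14 measures passed over the injured time points (smallest adjusted p = 0.682, permutation test), with 0 also at an unadjusted p under 0.05, and the same held for the within-mouse difference from Harmony monocytes. The mitochondrial percent of the members averaged 13.1% ± 3.804 at 1 dpi (n = 4), 11.3% ± 3.27 at 2 dpi (n = 3) and 11.5% ± 7.03 at 3.5 dpi (n = 4). Their UMIs lay below those of Harmony monocytes by 1.66, 1.64 and 2.21 on the log2 scale at these days. The single 5 dpi mouse with enough members, replicate B, entered the test with 15.2% mitochondrial UMIs and a UMI difference of -1.92 on the log2 scale.

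Over the mice the members overlapped the other nameless cells in depth, but within mice the direction differed. At 2 dpi the members' median UMIs were higher, 1959, 2898 and 4206 against 1478, 1776 and 2962 in replicates A to C. At 3.5 dpi they were lower, 2375, 6069, 2934 and 2585 against 4015, 7433, 3073 and 3996 in replicates A to D. At 1 dpi they were lower in replicate B and higher in A, C and D, and higher in 5 dpi replicate B. These differences were not tested. In the same 12 mice the other cells without a Harmony name, 2041 in the whole series, had median UMIs from 1478 to 7433 and mitochondrial percents from 6.11% to 17.8%, which overlapped the members' ranges of 1721 to 6069 UMIs and 5.31% to 21.4%. BBKNN named 35.8% of those other cells Cx3cr1_hi macrophages, 26.2% inflammatory monocytes and 12.3% patrolling monocytes. Though they were 10.7%, 6.52% and 4.02% of the cells at 2 dpi, the members carried only 4.52%, 2.54% and 1.97% of the UMIs of those mice. Low UMIs in a cell cannot be told apart here from fewer transcripts in that cell and less complete capture.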

How the data were processed

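Single-cell suspensions of 21 muscles were sequenced by the authors with 10x Genomics v3 chemistry. Per the submitters' processing notes, Cell Ranger 3.1.0, Seurat 3.1.5 and mm10 were used. The authors removed ambient RNA with SoupX, low-quality cells and predicted doublets, then integrated the data with other data sets, removed a noisy cluster and integrated again. The deposited tables give, for each cell, the expected count of UMIs after ambient correction (not whole numbers), the count of genes, the percent of UMIs in each gene class and the doublet score as a fraction, with labels of each method. Gene lists behind the percents are not given in the sources used here. Some deposited cells have fewer than 750 genes, the minimum in the methods.

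Members were found by their labels in every table. Members and measures were chosen with earlier results of these data known. Shares were compared over mice: an F statistic on arcsine square root shares with 100000 permutations, exact permutation tests between groups and exact sign-flip tests within mice, all two-sided or omnibus, with Benjamini-Hochberg adjustment and a threshold of 0.05. Medians needed at least 10 cells. Permutation p-values set differences between groups against the spread between mice, and sign-flip p-values set within-mouse differences against their own variation over mice. Cells could not be thinned to equal UMIs without gene counts. No single gene was named. Per-cell values were read with Python 3.11.15 (numpy 2.4.6, pandas 2.3.3, scipy 1.17.1). Cell numbers were also tested with edgeR 4.0.16 (R 4.3.3). Scripts were tested on simulated data. Alternatives covered the scale and denominator of shares, the cell filter, the label that picks members, minimum cell numbers, means, depth, comparison cells, each mouse left out and the replicate block.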

Additional observations from a re-analysis of the deposited data

Results flagged for a closer look

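In groups of 4 mice, 1 mouse was tested for lying apart from the others in 61 sets of values, and 6 did. Chance gives about 1 in 20 sets, but not where the other mice are all at 0, since any other value then stands apart. That was so for the share in uninjured replicate C and the bidirectional promoter lncRNAs in 3.5 dpi replicate B. Uninjured replicate C had 0.0199% members, a single cell, where the others had 0. In 3.5 dpi replicate C members were 0.8005% of cells, against a median of 0.418% in the others. The members of 1 dpi replicate A had a median of 10.8 log2 genes, against 10.3. In 3.5 dpi replicate B, with 11 members, the median ribosomal protein percent was 15.2%, against 7.28%, and that of bidirectional promoter lncRNAs was 0.0154%, against 0. The median doublet score of members was 0.157 in 3.5 dpi replicate D, against 0.188. The within-mouse differences of the members from Harmony monocytes in cell measures passed no test of change over days. None of these differences was therefore shown to vary between time points.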

How the results depend on the processing

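The difference of the members' share over the time points, largest at 2 dpi, passed in every alternative run (5.27 to 8.63 points with a mouse left out). It also passed edgeR's quasi-likelihood test of cell numbers over all injured days together (adjusted p = 3.31e-13 with TMM scaling and 1.79e-10 without). That test called 24 of 25 categories with either scaling. The log2 fold of 2 dpi over uninjured was 9.29 with TMM scaling, and edgeR did not test that day alone. The number of days that differed from uninjured mice, 4 of 5, was 4 with stricter filtering (3.71 points at 2 dpi) and became 3 as a centred log ratio, 5 with any BBKNN monocyte or macrophage name, 5 with a Scanorama monocyte name, 0 for shares of immune cells, 0 for shares of monocytes and macrophages, and 0 to 4 with a mouse left out, where 0 followed from leaving out any uninjured mouse because fewer splits remain. At 7 dpi the difference turned to -0.76 as a centred log ratio, -0.118 points of immune cells and -0.314 of monocytes and macrophages. The 3 changes between neighbouring days became 0 to 3, with 0 after leaving out any mouse of 1, 2, 3.5 or 5 dpi, again from fewer splits. In the main run the extreme days of the nameless fraction, among those with 2 or more mice, which leaves out 7 dpi, were 2 and 3.5 dpi. With a mouse left out the fraction at 2 dpi was 6.71 to 12.1 points above that at 3.5 dpi. The difference between 1 and 2 dpi then ranged from -0.854 to 5.56 points. With stricter filtering the fraction at 2 dpi was 4.92 points above that at 3.5 dpi, and the change from 5 to 7 dpi was -3.18 points. The test over time points then gave p = 0.0155 (permutation test), with 7 dpi resting on 1 mouse. Of 28 tests of cell measures 16 passed, and 16 to 18 with a mouse left out. After the fit on UMIs 9 of 24 passed, 6 of them small RNA or bidirectional promoter lncRNA classes with member medians at or near 0, and 3 of 28 within 1000 to 3000 UMIs, a window chosen after seeing the data. Heat shock percent against all Harmony monocytes turned negative with stricter filtering (-0.0108), against macrophages (-0.00550), after the fit on UMIs (-0.0472) and in the window (-0.0880), with -0.0183 to 0.0346 points when a mouse was left out. Against the same BBKNN name it was -0.0604 after the fit, -0.00803 in the window and -0.0291 to 0.0275 with a mouse left out. Ribosomal protein percent against that name turned to 0.227, 0.237 and 0.942 points with stricter filtering, after the fit and in the window, but passed as a lower value with at least 20 cells (-0.938, adjusted p = 0.0243), within 1 and 2 dpi (-0.952, adjusted p = 0.0486) and without 3.5 dpi replicate B (-1.05, adjusted p = 0.00391), by exact sign-flip tests. Against all monocytes it passed there and with at least 5 cells (-1.94 to -2.37 points), and against macrophages (-2.01). Transcription factor percent in the window was -0.215 and -0.0767 points. Why these values moved was not tested. Replicate letters did not pair the mice: 20 of 48 same-letter correlations of deviations exceeded 0.1, with a median of -0.0111. With the letter as a replicate block, added after seeing the data for all but the comparisons with uninjured mice and the time course, the differences stayed near their size (7.09 points at 2 dpi, 5.35 from 1 to 2 dpi). However, 0 from uninjured mice and 0 between neighbouring days passed. The few splits within letters allow no adjusted p below 0.25 in either set, and the smallest obtained were 0.312 and 0.25 (exact sign-flip test). The nameless fraction had p = 0.294 (permutation test).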
